A study of Gallus gallus with 5 samples.

Results

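Solute carrier genes were followed in chick embryos in which somite progenitors expressing eGFP had been placed into wild-type hosts. The members were all gene symbols in the named libraries that begin with SLC and a digit. They numbered 101 of 6940 named features. Of these, 67 had at least 100 unique molecular identifiers (UMIs, 1 for each captured transcript) in at least 1 library and are reported, 34 stayed under that minimum in every library, 6 of them with no UMI at all. The least rare of those 34 were SLC22A5 and SLC6A2, with 223 and 161 UMIs over the 4 libraries. SLC9A3R1 (a scaffold protein that binds transporters, now called NHERF1) and SLC7A6OS carry the prefix by name and are not transporters themselves.

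Solute carriers move small molecules across membranes. Facilitative glucose transporters of the SLC2 family let sugar enter along its gradient, monocarboxylate transporters of the SLC16 family carry lactate and related acids, and SLC25 proteins exchange ADP, ATP, phosphate and other metabolites across the inner mitochondrial membrane. Other families handle amino acids, zinc, copper, calcium, phosphate, folates and nucleotide sugars. The presomitic mesoderm of chick and mouse embryos is known for graded glycolysis along the body axis, and glucose uptake and lactate export are carried out by members of these families.

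The study compared a homochronic graft (HH4-HH4, HH4 donor into HH4 host) with a heterochronic one (HH8-HH4, HH8 donor into HH4 host), each collected at 0 hr and 3 hr. Donor embryos came from a GFP transgenic line and all hosts were wild-type HH4 embryos. The grafted piece was the medial somite progenitor region, which lies at the 90% level of the HH4 primitive streak, and the tissue around the graft was dissected, pooled over several embryos and dissociated for 10x Genomics single-cell libraries. Among barcodes with at least 2000 UMIs, those with at least 3 eGFP UMIs are called graft cells and those with 0 are called host cells. In HH4-HH4 there were 720 graft and 1764 host cells at 0 hr and 72 and 181 at 3 hr. In HH8-HH4 there were 2029 and 1726 at 0 hr and 116 and 232 at 3 hr.

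Each condition gave 1 library. For the homochronic graft at 0 hr there were 2 deposited replicates, which had 2755 barcodes in common, so they count as a single sample here and replicate 2 supplied all values. No test between conditions was therefore possible, no p-values are given, and cells were not treated as replicates. A level is the number of UMIs of a gene summed over the cells of a group per 1000000 UMIs (CPM), a difference is the log2 ratio of 2 such levels, and the intervals are exact 95% intervals that cover counting error only. Differences of at least 1.5-fold are counted for genes with at least 100 UMIs over both groups, and the share of all named genes past the same limit is given beside each count as background. In sums over mixed cells, fewer cells of a type and less RNA per cell cannot be told apart.

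The libraries differed in several ways that bear on the values. Graft cells of HH8-HH4 carried HOXA7 at 2434 CPM (0 hr) and 1794 CPM (3 hr). Host cells of the same libraries had 24.5 and 20.3 CPM. At least 1 HOXA7 UMI was present in 2007 of 2029 graft cells at 0 hr and in 100 of 116 at 3 hr. The graft labels thus match this marker of older progenitors in most cells, less completely at 3 hr. HH4-HH4 3 hr stood apart from the other HH4 material, with CDX4 at 383 CPM in graft and 525 CPM in host cells (35.1 and 48.6 CPM at 0 hr) and GSC, an organiser gene, at 3.08 and 0.125 CPM (236 and 180 CPM at 0 hr). Median UMIs per cell ran from 8838 in HH8-HH4 0 hr graft cells to 47194 in HH4-HH4 3 hr graft cells, and 56.6% of the barcodes of HH8-HH4 3 hr fell under the limit of 2000. HINTW, a gene of the female W chromosome, was at 7578 CPM in graft and 2434 CPM in host cells of HH4-HH4 0 hr, and at 204 and 5113 CPM in HH8-HH4 0 hr, so graft and host pools held different mixtures of the sexes.

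Mitochondrial carriers made up most of the solute carrier RNA. Solute carriers held between 0.485% of all UMIs (graft cells of HH8-HH4 0 hr) and 0.623% (graft cells of HH4-HH4 0 hr), and SLC25A6 (an ADP/ATP exchanger) with SLC25A3 (the mitochondrial phosphate carrier) took 45.6% to 51.7% of that share. The 10 members with the most UMIs over the 4 libraries were SLC25A6, SLC25A3, SLC16A1, SLC9A3R1, SLC35B1, SLC7A6OS, SLC35E3, SLC25A4, SLC2A14 and SLC19A1. SLC25A6 and SLC25A4 encode closely similar proteins. How reads that match both genes were counted was not tested, so the levels of both genes are uncertain. Total solute carrier RNA apart from SLC25A6 and SLC25A3 was the same in graft and host cells of HH4-HH4 3 hr (2684 CPM in both) and nearly so in HH4-HH4 0 hr (3131 and 3128 CPM). In HH8-HH4 it was lower in graft than in host cells, at 2563 against 3187 CPM at 0 hr and 2600 against 3176 CPM at 3 hr. This total still holds SLC9A3R1 (203 and 350 CPM in graft and host cells at 0 hr) and SLC7A6OS (149 and 174 CPM), which are not transporters. It also holds SLC2A14 (15.3 and 170 CPM), so a large part of the 0 hr gap lies in these genes.

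Among the members reported, SLC2A14 had the largest difference between HH8 grafts and their hosts at both times. RefSeq gives GLUT3 and SLC2A3 as synonyms of chicken SLC2A14, so the symbol stands for the high-affinity glucose transporter called GLUT3 in other species. Its level was 15.3 CPM in HH8 graft cells at 0 hr (interval 13.6 to 17.2) against 170 CPM in the host cells around them (164 to 176), which is 11.1-fold lower. At 3 hr the levels were 32.0 CPM (25.1 to 40.2) in graft and 219 CPM (206 to 233) in host cells. In HH4-HH4 the graft and host levels were 178 and 165 CPM at 0 hr and 76.2 and 111 CPM at 3 hr (log2 ratio -0.54, -0.73 to -0.35). Thus both HH8 graft values lay below all 6 values of HH4 cells, whether grafted or host.

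In order of level, SLC2A14 was highest in host cells of HH8-HH4 3 hr, followed by HH4 graft cells at 0 hr, the host cells of the 0 hr libraries, both cell groups of HH4-HH4 3 hr and then HH8 graft cells at 3 hr and at 0 hr. The intervals of HH4 graft cells and of host cells of HH8-HH4 at 0 hr overlapped (170 to 186 against 164 to 176 CPM), as did those of the 0 hr host cells with each other. The host levels at 0 hr, from separate libraries, differed by a log2 ratio of 0.04. At 3 hr the host levels differed by 0.99, although all hosts had the same stage when grafted. The HH8 graft was lower than its host by -3.47 (-3.65 to -3.30) on the log2 scale at 0 hr and by -2.78 (-3.14 to -2.44) at 3 hr.

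SLC2A1 (GLUT1), which supplies basal glucose uptake in most cells, did not share the low level of SLC2A14 in HH8 grafts. SLC2A1 was at 88.4 CPM in HH8 graft and 78.4 CPM in host cells at 0 hr, and at 77.9 and 73.3 CPM at 3 hr. In HH4-HH4 its graft and host levels were 86.5 and 53.8 CPM at 0 hr and 66.7 and 72.1 CPM at 3 hr, so the lowest of the 8 values was that of HH4 host cells at 0 hr. SLC2A14 accounted for 14.8% of the UMIs of both genes in HH8 graft cells at 0 hr (exact binomial interval 13.2 to 16.4%) and 29.1% at 3 hr (23.6 to 35.1%). In the other groups it accounted for 53.3% to 75.4%. Summed over both genes, the level was 104 and 110 CPM in HH8 graft cells and 143 to 293 CPM in the other 6 groups. SLC2A8 (GLUT8), an intracellular hexose transporter in mammals, was low everywhere, between 6.83 and 10.8 CPM.

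**Figure D1:**
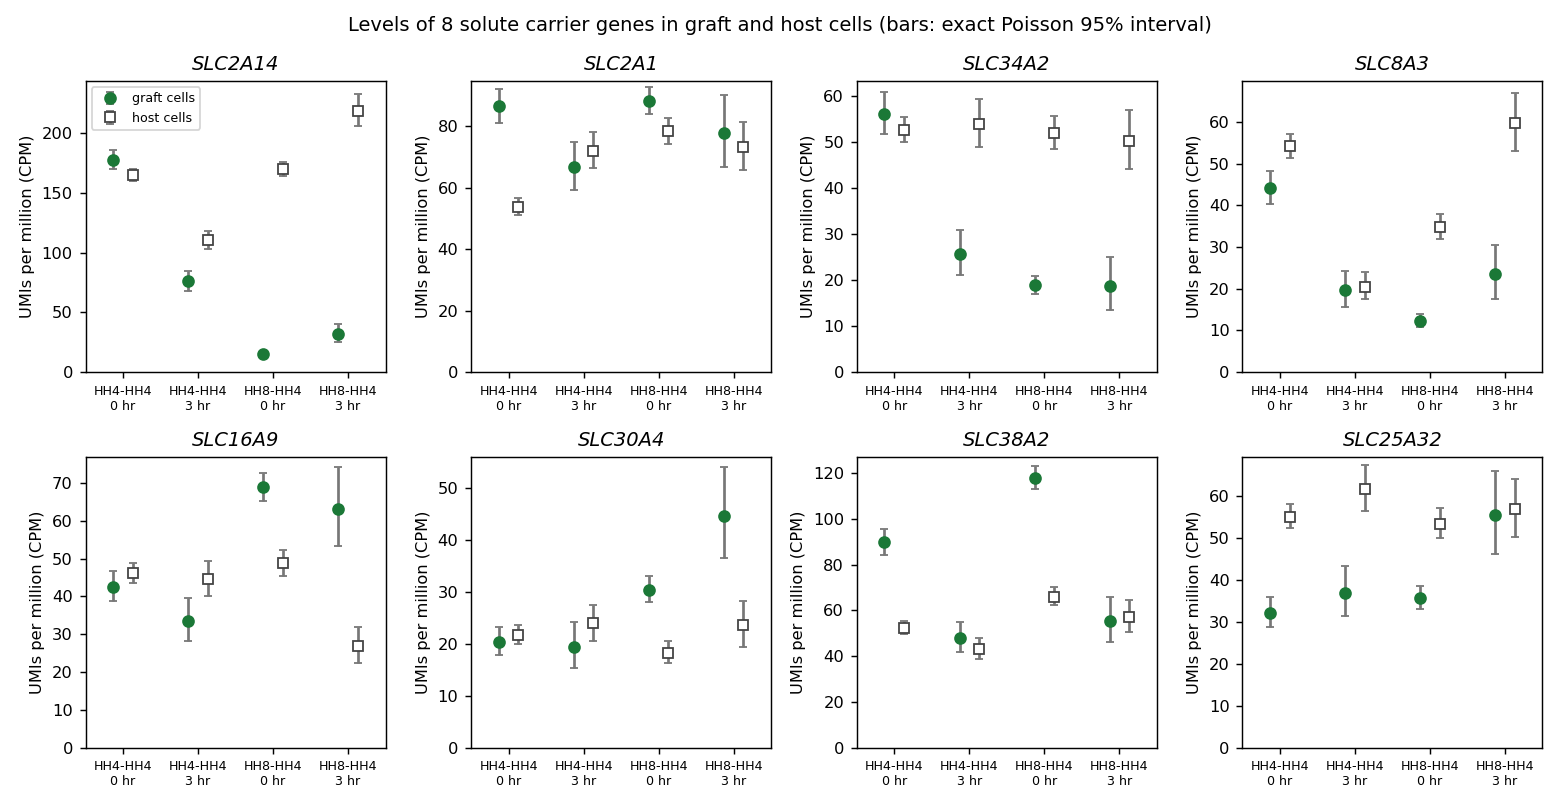
Levels of 8 solute carrier genes in CPM (vertical axes, from 0) in the 4 libraries (horizontal axes), with filled circles for graft cells, open squares for host cells and bars for exact Poisson 95% intervals. SLC2A14 stood at 15.3 and 32.0 CPM in HH8 graft cells, below all other groups, while SLC2A1 kept between 53.8 and 88.4 CPM.

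Cell composition differed between HH8 grafts and their hosts and was matched at 0 hr for MSGN1 and for SOX3. MSGN1 marks paraxial mesoderm, and positive means at least 3 UMIs. Among MSGN1-positive cells of HH8-HH4 0 hr, SLC2A14 was at 16.0 CPM in 554 graft cells and 119 CPM in 715 host cells. The log2 ratio was -2.89 (-3.23 to -2.57). Among SOX3-positive cells (SOX3 marks epiblast and neural plate), SLC2A14 was at 41.5 CPM in 91 graft cells and 228 CPM in 351 host cells, a log2 ratio of -2.46 (-2.94 to -2.01). Thus SLC2A14 was lower in HH8 graft cells in both matched classes. Cells positive for GNOT2, a node marker (30 graft and 347 host cells at 0 hr), were not matched. Limiting the graft cells further to those with HOXA7, an alternative chosen after the data were seen, gave -3.48 at 0 hr and -2.73 at 3 hr for SLC2A14. When 1 eGFP UMI was enough to call a graft cell, the SLC2A14 ratio was -2.63 at 0 hr and -0.88 at 3 hr. Organiser genes of the host were also present in HH8 graft cells at low level, GSC at 8.08 CPM (0 hr) and 11.2 CPM (3 hr) against 226 and 64.1 CPM in host cells, and the part of carried-over host RNA in the SLC2A14 level was not tested.

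Over the 8 groups of graft and host cells, SLC2A14 had the largest spread of the reported members (SD 1.15 of log2 CPM with 10 CPM added) and SLC8A3 the next (SD 0.59). Among the named genes whose levels followed that of SLC2A14 most closely were PALD1 (Pearson r = 1.00) and AGRN (0.99), and for SLC8A3 the closest were EPHX2 (0.99), TPST2 (0.99) and FHOD1 (0.98). These are descriptions over 8 groups from 4 libraries, in which graft and host cells share a library.

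Across all solute carriers, HH8 grafts differed from their hosts at more members than HH4 grafts did. In HH8-HH4 0 hr, 7 of 66 members were at least 1.5-fold higher in graft cells (background 8.25%) and 12 were lower (background 15.5%). In HH8-HH4 3 hr, 3 of 44 were higher (background 7.40%) and 10 lower (background 10.3%). In HH4-HH4 0 hr, 3 of 66 were higher (background 2.51%) and 2 lower (background 1.99%), and in HH4-HH4 3 hr 1 of 52 was higher (background 2.99%) and 2 lower (background 4.30%). The members' median log2 ratio was -0.15 in HH8-HH4 0 hr, -0.09 in HH8-HH4 3 hr, -0.03 in HH4-HH4 0 hr and 0.00 in HH4-HH4 3 hr. Over all genes tested the medians were -0.10, -0.06, -0.02 and -0.06. The larger number in HH8 grafts was thus seen in the background as well. The share of members lower in HH8-HH4 at 3 hr stood above its background, and the others lay nearer to theirs. Whether any share departs from its background was not tested. The 3 hr counts rest on 1 library with 116 graft cells, and fewer members passed when 1 eGFP UMI was enough to call a graft cell.

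The host cells, a comparison added after the data were seen, show how far the libraries differ where no cell was grafted. All hosts were HH4 embryos when grafted, but at 3 hr the host cells of HH4-HH4 had CDX4 at 525 CPM and HOXB8 at 92.3 CPM against 19.9 and 7.33 CPM in HH8-HH4, so those pools were not alike in these stage markers. Between the host pools of the 0 hr libraries, 4 of 66 members differed by at least 1.5-fold (background 3.69%) and the SD of the log2 ratios was 0.27. Between the host pools of the 3 hr libraries, 11 of 52 did (background 16.0%), and the SD was 0.44. The largest host difference was that of SLC8A3 at 3 hr, 1.54, so differences of a similar size that involve HH4-HH4 3 hr lie within what the hosts showed.

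**Figure D2:**
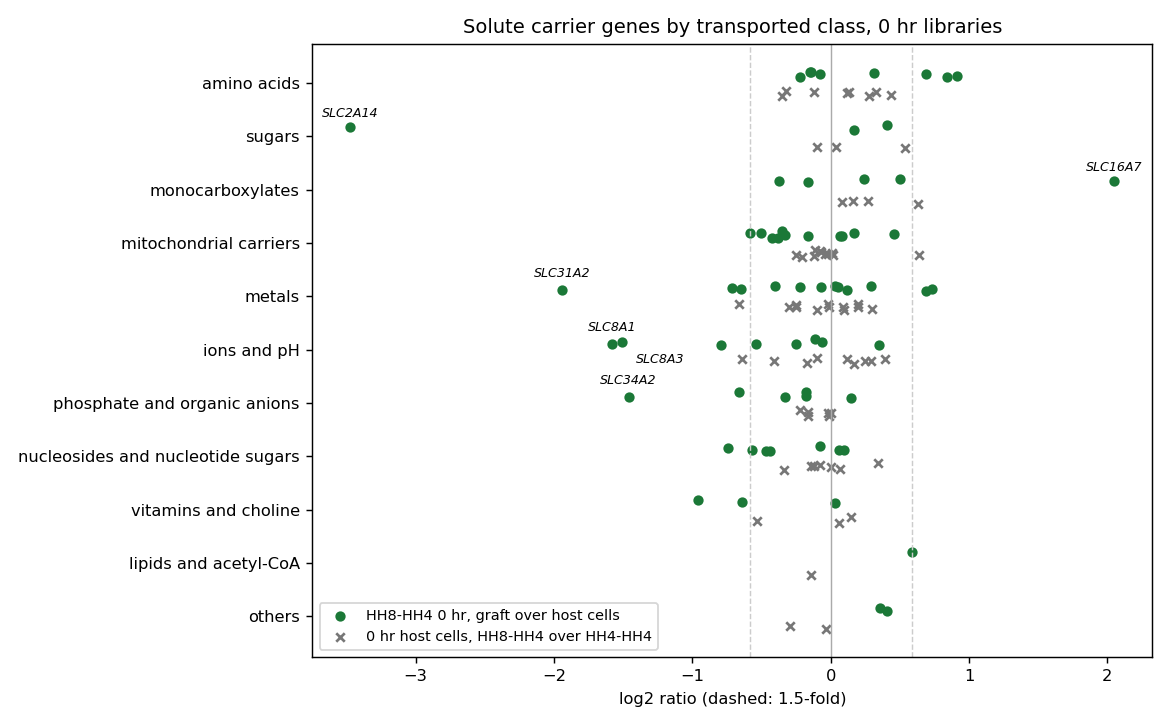
Log2 ratios (horizontal axis, dashed lines at 1.5-fold) of reported members grouped by what they transport (vertical axis), with circles for graft over host cells of HH8-HH4 0 hr and crosses for host cells of HH8-HH4 0 hr over host cells of HH4-HH4 0 hr. SLC2A14 at -3.47, SLC31A2 at -1.94, SLC8A1 at -1.58, SLC8A3 at -1.51 and SLC34A2 at -1.46 lie outside the range of the host differences. These reached 0.66 at most, with an SD of 0.27, and some members not named here lie outside it as well. SLC16A7, at 2.05, had too few host UMIs (36 and 22) to enter the host comparison.

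Apart from SLC2A14, the members that were lowest in HH8 grafts carry calcium, phosphate and copper. SLC34A2 (a sodium-dependent phosphate importer) was at 18.9 CPM in graft and 52.0 CPM in host cells of HH8-HH4 0 hr and at 18.6 and 50.3 CPM at 3 hr, which is 2.75-fold and 2.70-fold lower. In HH4-HH4, SLC34A2 was at 56.2 CPM in graft and 52.7 CPM in host cells at 0 hr and at 25.6 and 54.0 CPM at 3 hr. The 4 host values of SLC34A2 therefore lay between 50.3 and 54.0 CPM, and 3 of the 4 graft values lay below them, including that of the HH4 graft at 3 hr (log2 ratio -1.08, -1.40 to -0.77). Among MSGN1-positive cells of HH8-HH4 0 hr the SLC34A2 ratio was -0.56 (-0.94 to -0.18) instead of -1.46, and among SOX3-positive cells it was -1.79 (-2.33 to -1.30).

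SLC8A3, a sodium-calcium exchanger, was at 12.2 CPM in graft and 34.8 CPM in host cells of HH8-HH4 0 hr (log2 ratio -1.51, -1.74 to -1.29) and at 23.4 and 59.7 CPM at 3 hr (-1.35, -1.80 to -0.93). In HH4-HH4 the SLC8A3 levels were 44.1 CPM in graft and 54.2 CPM in host cells at 0 hr and 19.6 and 20.5 CPM at 3 hr. Graft and host groups of SLC8A3 thus overlapped when the libraries were put side by side, and the lower graft level held within HH8-HH4. The related exchanger SLC8A1 was at 3.73 CPM in graft and 11.2 CPM in host cells of HH8-HH4 0 hr, and at 3.89 and 8.59 CPM at 3 hr (9 and 41 UMIs). SLC31A2, a copper carrier of intracellular membranes in mammals, had 34 and 111 UMIs in HH8-HH4 0 hr, a log2 ratio of -1.94 (-2.54 to -1.37), and -0.52 with 10 CPM added to both levels. In HH4-HH4 0 hr, SLC31A2 was also lower in the graft, at 3.60 CPM against 5.56 CPM.

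Several abundant members were moderately lower in HH8 grafts at both times. SLC35E3, an orphan member of the nucleotide sugar family, was at 91.0 CPM in graft and 152 CPM in host cells at 0 hr and at 104 and 166 CPM at 3 hr. SLC19A1, the reduced folate carrier, was at 77.6 and 121 CPM at 0 hr and at 68.8 and 115 CPM at 3 hr. SLC35B1, an ATP and ADP exchanger of the endoplasmic reticulum, was at 186 and 276 CPM at 0 hr and at 164 and 261 CPM at 3 hr. These 3 genes were at 116 to 150, 108 to 120 and 299 to 307 CPM in HH4 graft cells, so the HH8 graft values lay below both HH4 graft values for each. In host cells of HH4-HH4 3 hr, however, SLC35E3 was at 98.6 CPM, between its HH8 graft values. SLC39A9, a zinc importer, was at 59.1 and 96.7 CPM in graft and host cells of HH8-HH4 0 hr and at 56.2 and 83.6 CPM at 3 hr, and among MSGN1-positive cells at 0 hr its log2 ratio was -1.05 (-1.24 to -0.87). Also past the limit at 0 hr were members of low level, SLC46A1 (a folate carrier) at 1.99 and 3.88 CPM, SLC17A9 (a vesicular nucleotide carrier) at 3.04 and 4.81 CPM and SLC30A7 (a zinc transporter) at 4.83 and 7.58 CPM. The abundant scaffold gene SLC9A3R1 was past the limit at 0 hr as well, at 203 CPM in graft and 350 CPM in host cells at 0 hr and at 214 and 313 CPM at 3 hr.

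Members that were higher in HH8 grafts included zinc and monocarboxylate carriers. SLC30A4, a zinc exporter, was at 30.4 CPM in graft and 18.3 CPM in host cells at 0 hr (log2 ratio 0.73, 0.53 to 0.94) and at 44.5 and 23.5 CPM at 3 hr (0.93, 0.53 to 1.32). In HH4-HH4, SLC30A4 was between 19.4 and 23.9 CPM in graft and host cells, so both HH8 graft values lay above the other 6. SLC30A5, a zinc transporter of the secretory pathway, was at 52.3 and 32.5 CPM in graft and host cells at 0 hr and at 74.8 and 55.3 CPM at 3 hr, while in HH4-HH4 it was between 38.2 and 41.4 CPM. HINTW was at 204 and 5113 CPM in the same graft and host cells at 0 hr and at 260 and 2343 CPM at 3 hr. Whether the sex mixture had a part in the SLC30A5 levels was not tested. Of the 12 metal carriers tested at 0 hr, 2 were at least 1.5-fold higher in HH8 grafts and 3 were lower, against 8.25% and 15.5% of all genes, so the family as a whole had no single direction and its counts lay near the background.

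Of the 5 monocarboxylate carriers compared in HH8-HH4 at 0 hr, 1 (SLC16A7) was at least 1.5-fold higher in the graft (background 8.25%). SLC16A7 met the minimum for reporting through this library alone, with 132 UMIs against 50 in HH4-HH4 0 hr, so its count is no support for a difference. None was lower (background 15.5%), and whether the family departs from the background was not tested. SLC16A1 (MCT1), the most abundant of the family, stayed between 269 and 389 CPM over the 8 groups, with log2 ratios of graft to host of 0.25 and -0.02 in HH4-HH4 at 0 and 3 hr and of -0.16 and -0.07 in HH8-HH4. SLC16A9 (MCT9, linked to carnitine in humans) was at 68.8 and 63.1 CPM in HH8 graft cells at 0 and 3 hr, and between 26.8 and 48.7 CPM in the other 6 groups. The SLC16A9 ratio of graft to host was 0.50 (0.37 to 0.63) at 0 hr and 1.24 (0.88 to 1.59) at 3 hr, and 0.09 at 0 hr among MSGN1-positive cells. SLC16A7 (MCT2) had few UMIs, 107 in graft and 22 in host cells of HH8-HH4 0 hr and 16 and 5 at 3 hr, which gave 5.61 and 1.36 CPM and then 6.92 and 1.05 CPM. Its level in HH4-HH4 was between 0.473 and 1.35 CPM, and the ratio at 0 hr of 2.05 (1.38 to 2.78) became 0.46 with 10 CPM added. SLC16A7 was thus highest in the HH8 grafts, but through its UMIs in HH8-HH4 0 hr it had been selected.

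SLC16A3 (MCT4), which exports lactate from glycolytic cells, was higher in HH4 grafts than in their hosts. Its levels were 30.5 and 19.0 CPM in graft and host cells of HH4-HH4 0 hr (log2 ratio 0.68, 0.48 to 0.89) and 23.4 and 12.7 CPM at 3 hr (0.88, 0.46 to 1.29). In HH8-HH4 the SLC16A3 levels were 22.7 and 29.4 CPM at 0 hr and 27.2 and 19.9 CPM at 3 hr, so the graft level was lower at 0 hr and the groups overlapped over the libraries. The host level of SLC16A3 itself differed by 0.63 between the 0 hr libraries. Within MSGN1-positive cells of HH8-HH4 0 hr the direction was the opposite of that over all cells, with SLC16A3 at 31.8 CPM in graft and 12.4 CPM in host cells (1.36, 0.97 to 1.76). SLC16A10, a carrier of aromatic amino acids, was between 11.3 and 29.1 CPM, with graft to host ratios of -0.04 and -0.45 in HH4-HH4 at 0 and 3 hr and of 0.24 in HH8-HH4 at 0 hr.

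The partners and enzymes around these carriers were read from lists of named genes. Of the 4 partner genes listed, 2 were among the features. BSG (basigin), the chaperone that brings SLC16A1 and SLC16A3 to the cell surface, was at 806 CPM in graft and 1256 CPM in host cells of HH8-HH4 0 hr and at 923 and 1243 CPM at 3 hr, and at 1417 and 1320 CPM in HH4-HH4 0 hr. Of 17 glycolytic genes, 14 were among the features and 12 could be compared in HH8-HH4 0 hr. There 1 was at least 1.5-fold higher in the graft (background 8.25%) and 1 lower (background 15.5%). The median log2 ratio was -0.00, against -0.10 over all genes. At 3 hr 10 could be compared, 3 were higher (background 7.40%) and 0 lower (background 10.3%). The median was then 0.35, against -0.06 over all genes. Whether the list departs from the background was not tested. LDHA and LDHB encode the subunits of lactate dehydrogenase. LDHA was at 68.5 CPM in graft and 304 CPM in host cells of HH8-HH4 0 hr and at 157 and 75.8 CPM at 3 hr. In HH4-HH4, LDHA was at 229 CPM in graft and 70.3 CPM in host cells at 0 hr and at 190 and 34.7 CPM at 3 hr. LDHA thus differed between graft and host cells in the homochronic libraries as well. LDHB was at 4670 and 2101 CPM in HH8-HH4 at 0 hr and at 4449 and 2087 CPM at 3 hr. At the glycolytic steps between, GAPDH was at 6811 and 7310 CPM and ENO1 at 1480 and 1421 CPM in graft and host cells of HH8-HH4 0 hr.

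**Figure D3:**
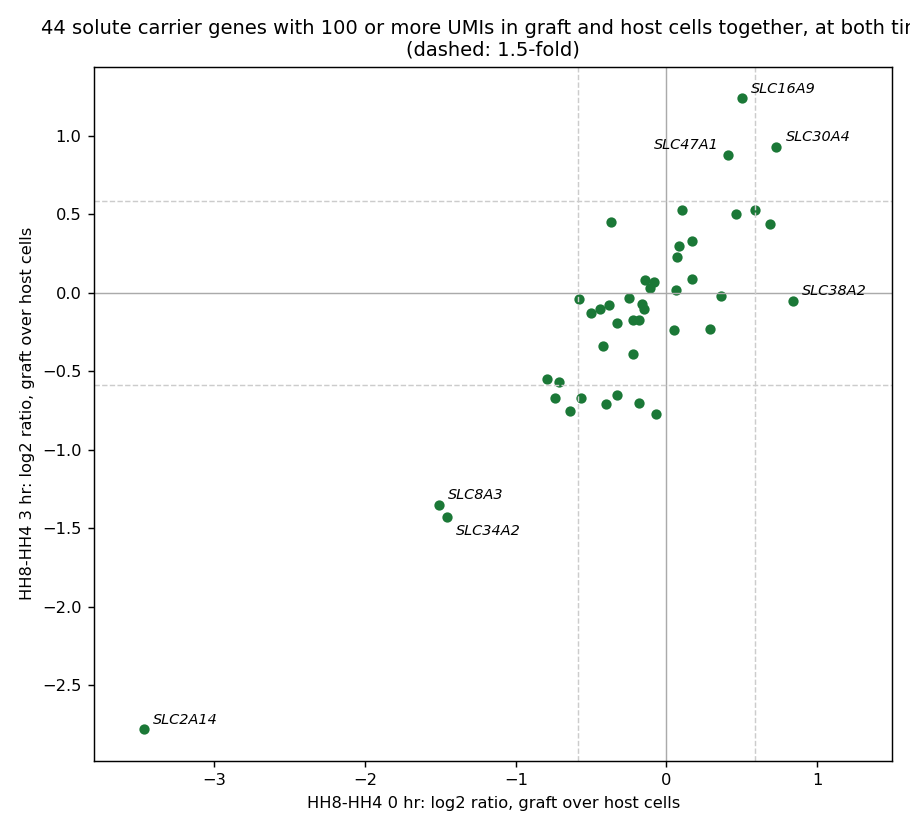
Log2 ratio of graft over host cells in HH8-HH4 0 hr (horizontal axis) and HH8-HH4 3 hr (vertical axis) for 44 members, with dashed lines at 1.5-fold. SLC2A14 lies at the lower left (-3.47 and -2.78), SLC8A3 and SLC34A2 follow, SLC30A4 and SLC16A9 lie at the upper right, and SLC38A2 is high at 0 hr alone (0.84 and -0.05).

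Most differences of the HH8 graft at 0 hr had the same sign at 3 hr. Of the 44 members compared at both times, 36 had log2 ratios of the same sign (76.9% of 3542 named genes did), and the Pearson correlation across these genes was 0.87, given as a description since SLC2A14 alone lies far from the rest. The 0 hr and 3 hr libraries were separate pools. At least 1.5-fold lower at both times were 5 genes, SLC2A14, SLC34A2, SLC8A3, SLC35E3 and SLC19A1, out of 7 at 0 hr and 10 at 3 hr among the 44. SLC30A4 was the member higher at both times, out of 4 and 3. Among all named genes compared, 7.43% were lower and 3.95% higher at both times.

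SLC38A2 (SNAT2), an amino acid transporter whose gene is induced by amino acid shortage in mammals, was an exception to this pattern and showed the same course in both kinds of graft. At 0 hr SLC38A2 was at 89.8 CPM in HH4 graft and 52.5 CPM in host cells (log2 ratio 0.78, 0.66 to 0.90) and at 118 CPM in HH8 graft and 66.1 CPM in host cells (0.84, 0.73 to 0.94). At 3 hr its levels were 48.0 and 43.1 CPM in HH4-HH4 and 55.4 and 57.2 CPM in HH8-HH4. The graft level at 3 hr was thus lower than at 0 hr by a log2 ratio of -0.90 (-1.13 to -0.68) in HH4 and -1.09 (-1.36 to -0.83) in HH8 grafts, and the hosts differed by -0.28 and -0.21. Of 10 amino acid response genes listed, 4 were among the features. Of these, CHAC1 was at 46.3 CPM in HH8 graft and 6.91 CPM in host cells at 0 hr, but at 1.71 and 5.97 CPM in HH4-HH4 0 hr, and ATF4 was at 972 and 874 CPM and at 716 and 791 CPM. ASNS was at 144 and 128 CPM in HH8-HH4 and at 125 and 135 CPM in HH4-HH4, and VLDLR at 3.83 and 5.12 CPM and at 3.32 and 3.91 CPM. Thus the listed genes other than CHAC1 did not reach 1.5-fold at 0 hr. CHAC1 was higher in HH8 graft and lower in HH4 graft than in host cells. Whether amino acid shortage had a part in the SLC38A2 levels was not tested.

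Among the other amino acid carriers, SLC6A9 (a glycine transporter) was at 7.29 CPM in HH8 graft and 3.88 CPM in host cells at 0 hr (log2 ratio 0.91, 0.47 to 1.36) and at 6.06 and 9.42 CPM at 3 hr. SLC1A2, a glutamate transporter, was at 3.67 and 2.28 CPM in graft and host cells of HH8-HH4 0 hr. At 3 hr it had 0 and 10 UMIs, and among MSGN1-positive cells at 0 hr its direction was the opposite. Of the 7 amino acid carriers compared in HH8-HH4 at 0 hr, without SLC7A6OS, 3 were at least 1.5-fold higher in the graft (8.25% of all genes) and 0 were lower (15.5% of all genes). These were SLC6A9, SLC1A2 and SLC38A2, the last of which was also higher in HH4 grafts at 0 hr. Of 7 carriers of ions and protons at 0 hr, without SLC9A3R1, 0 were higher and 2 lower. At 3 hr 0 of 3 amino acid carriers were higher (7.40% of all genes) and 0 lower (10.3% of all genes). Whether these families depart from the background was not tested. SLC7A5, a large neutral amino acid carrier, was between 47.2 and 67.3 CPM throughout, and its partner SLC3A2 was not analysed here.

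The HH4 grafts were close to their hosts for most members. SLC2A1 was 1.61-fold higher in graft than in host cells at 0 hr (log2 ratio 0.68, 0.56 to 0.80) and did not keep this difference at 3 hr (-0.11, -0.32 to 0.10). SLC25A32, a mitochondrial carrier of folate and FAD, was lower in graft cells of 3 of the 4 libraries, at 32.1 against 55.0 CPM in HH4-HH4 at 0 hr, 36.9 against 61.6 CPM in HH4-HH4 at 3 hr and 35.6 against 53.3 CPM in HH8-HH4 at 0 hr. In HH8-HH4 at 3 hr its levels were 55.4 and 56.8 CPM. The graft values of SLC25A32 in those 3 libraries lay below all 4 host values. Among cells under 500 CPM of HINTW, a matching of the sexes, the SLC25A32 ratio was -0.78 at 0 hr in 241 graft and 1432 host cells and -0.33 at 3 hr in 26 and 94 cells. In those 3 hr cells the ratio of SLC2A14 was -1.88. SLC39A13, a zinc transporter, was at 21.9 and 31.0 CPM in graft and host cells of HH4-HH4 0 hr, a log2 ratio of -0.50 (-0.72 to -0.29). SLC27A1, a fatty acid transporter, was at 11.6 and 7.75 CPM and SLC35A3, a UDP-GlcNAc transporter, at 14.0 and 9.87 CPM in HH4-HH4 3 hr, with intervals of the log2 ratio from 0.01 to 1.15 and from -0.01 to 1.01.

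Mitochondrial carriers stayed within 1.5-fold between HH8 grafts and their hosts. Of the 11 SLC25 members compared at 0 hr, 0 reached the limit (background 8.25% higher and 15.5% lower). Their median log2 ratio was -0.33 (range -0.58 to 0.46). At 3 hr 0 of 9 did so (background 7.40% higher and 10.3% lower), and the median was -0.04. Whether the family departs from the background was not tested. SLC25A6 was at 1359 CPM in HH8 graft and 1711 CPM in host cells at 0 hr and at 1297 and 1483 CPM at 3 hr. SLC25A3 was at 928 and 1204 CPM at 0 hr and at 1114 and 1181 CPM at 3 hr, and SLC25A4 at 105 and 141 CPM at 0 hr and at 108 and 136 CPM at 3 hr. In HH4-HH4 the SLC25A6 ratios of graft to host were 0.09 and 0.18 at 0 and 3 hr, so SLC25A6 was lower than in the host in HH8 grafts and not in HH4 grafts. SLC7A6OS was at 149 and 174 CPM in HH8 graft and host cells at 0 hr.

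Graft cells of both stages were also set directly against each other at 0 hr, across libraries, where stage and library cannot be told apart. Of 63 members, 2 were at least 1.5-fold higher in HH8 than in HH4 graft cells (background 10.9%) and 8 were lower (background 14.4%). SLC2A14 was 11.6-fold lower (log2 ratio -3.54, -3.72 to -3.36), SLC8A3 differed by -1.85 (-2.08 to -1.62) and SLC34A2 by -1.57 (-1.77 to -1.38). SLC16A7 (2.43, 1.53 to 3.47) and SLC16A9 (0.69, 0.54 to 0.85) were the members past 1.5-fold upwards, and SLC30A4 lay just inside the limit at 0.58 (0.35 to 0.81). SLC16A7 had met the minimum for reporting through HH8-HH4 0 hr alone. SLC2A1 differed by 0.03 (-0.09 to 0.15) between the same cells. At 3 hr, a comparison added after the data were seen, 6 of 40 members were higher (background 12.2%) and 4 lower (background 8.42%), the opposite balance. In it HH8 graft cells had SLC2A14 at a log2 ratio of -1.25 (-1.64 to -0.88) to HH4 graft cells, SLC30A4 at 1.20 (0.77 to 1.64) and SLC16A9 at 0.91 (0.57 to 1.25), while SLC8A3 was at 0.25 (-0.27 to 0.76).

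HH4 cell classes, marked by GNOT2 (node), MSGN1 (paraxial mesoderm), SOX3 (epiblast and neural plate) and SOX17 (endoderm), differed in a few carriers each. All cells of the homochronic library at 0 hr were used, and those holding 3 or more UMIs of a marker were set against those with 0. At least 1.5-fold different were 2 of 64 members for GNOT2 (background 9.15%), 4 of 65 for MSGN1 (background 11.0%), 8 of 63 for SOX3 (background 11.2%) and 11 of 65 for SOX17 (background 14.0%). Positive cells numbered 612, 1189, 632 and 295, and 289 of the GNOT2-positive and 350 of the SOX3-positive cells carried no other of the 4 markers. GNOT2-positive and SOX3-positive cells were deeper than their negative counterparts (medians of 15878 against 13566 and 15934 against 13194 UMIs).

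SLC34A2 was the carrier most tied to these classes. Its level was 106 CPM in GNOT2-positive and 28.8 CPM in negative cells (log2 ratio 1.88, 1.74 to 2.03), and 98.0 and 30.9 CPM by SOX3 (1.67, 1.51 to 1.82). By MSGN1 the SLC34A2 level was 25.7 CPM in positive and 84.0 CPM in negative cells (-1.71, -1.87 to -1.55), and by SOX17 29.4 and 56.4 CPM (-0.94, -1.21 to -0.68). GNOT2-positive and SOX3-positive cells were therefore high and MSGN1-positive and SOX17-positive cells low. In host cells of HH4-HH4 3 hr, GNOT2 was at 417 CPM, CHRD at 305 CPM, GSC at 0.125 CPM and ADMP at 0 CPM. Whether GNOT2 marks the node in that library was not tested. The SLC34A2 ratio was also taken in graft or host cells apart, and in the 3 hr libraries, wherever at least 20 cells were positive. It lay between 1.28 and 1.91 for GNOT2 and between 1.01 and 2.33 for SOX3 in 6 of 6 comparisons. It lay below 0 for MSGN1 in 6 of 6 (-1.98 to -0.31) and for SOX17 in 3 of 3 (-1.54 to -0.14). These comparisons include graft and host cells of HH4-HH4 0 hr, which are parts of the cells used above, so they are not independent repeats. For SOX17, only the host cells of HH8-HH4 0 hr came from another library. The same holds for such ranges of the other members.

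SLC2A14 followed a milder course of the same direction. It was at 238 CPM in SOX3-positive and 131 CPM in negative cells (log2 ratio 0.87, 0.78 to 0.95) and at 104 CPM in SOX17-positive and 177 CPM in negative cells (-0.76, -0.90 to -0.62). For MSGN1 the SLC2A14 ratio was -0.50, and for GNOT2 it was 0.38. In graft or host cells taken apart and in the 3 hr libraries, the SLC2A14 ratio lay between 0.75 and 1.64 for SOX3 and between 0.31 and 2.75 for GNOT2. The highest GNOT2 value came from HH8 graft cells at 0 hr, in which 30 GNOT2-positive cells had SLC2A14 at 88.1 CPM (33 UMIs) and the 1801 negative cells 13.1 CPM. Those positive cells were deeper (medians of 12420 against 8695 UMIs), and doublets were not called. GNOT2 itself was at 19.1 CPM in HH8 graft and 146 CPM in host cells at 0 hr. The part of barcodes with both graft and host RNA in this ratio was not tested. SLC2A1 ratios over the same groups of cells ran from -0.24 to 0.04 for MSGN1, from -0.16 to 0.18 for SOX3 and from -0.06 to 0.37 for GNOT2. For SOX17 they ran from 0.15 to 0.55, above 0 in 3 of 3 groups, where SLC2A14 was below 0.

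**Figure D4:**
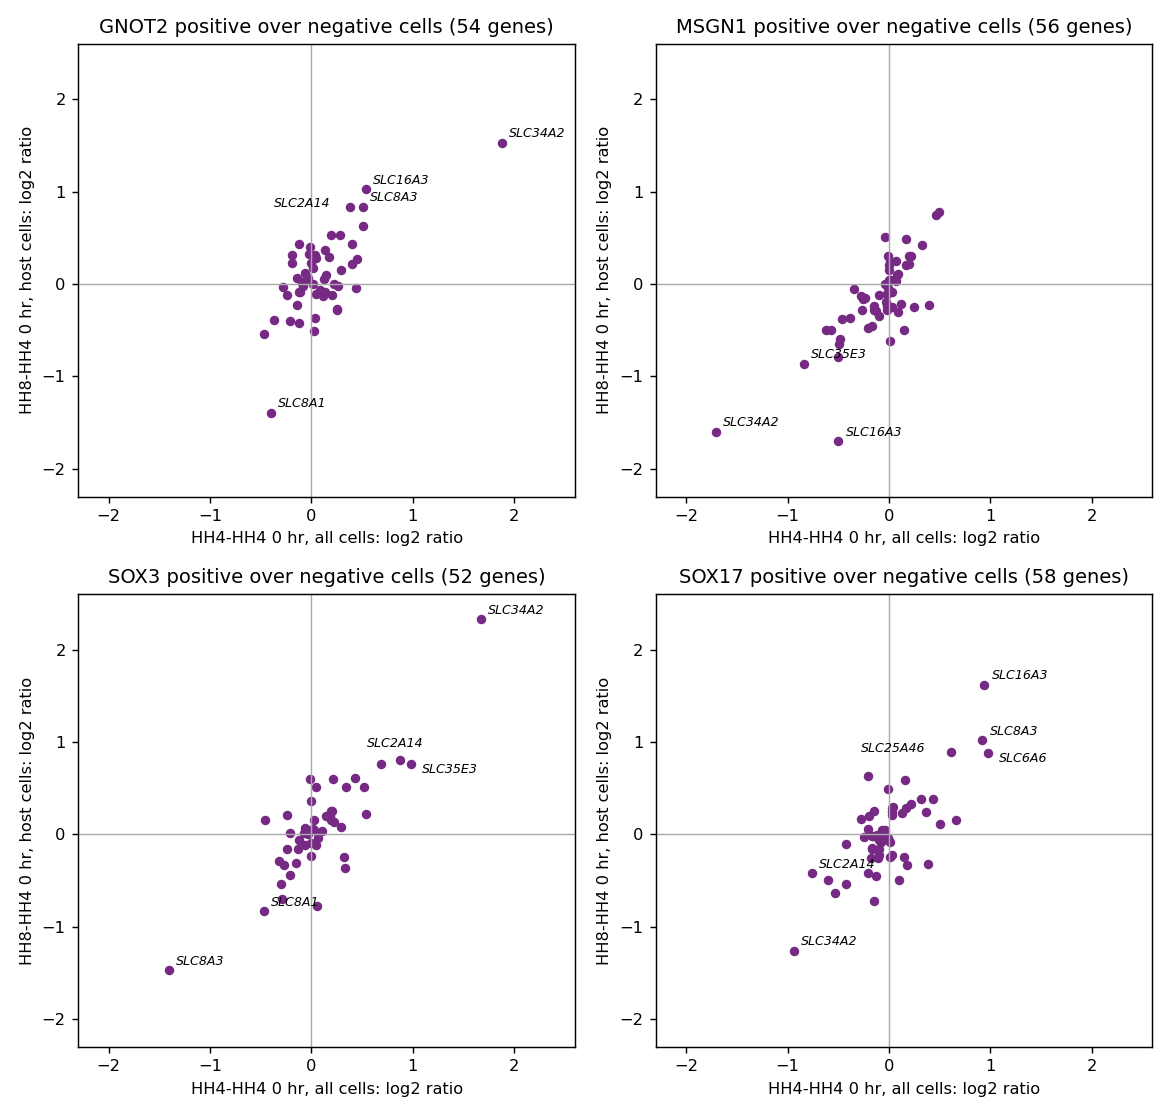
Log2 ratios of marker-positive over marker-negative cells for each of the 4 markers, in all cells of HH4-HH4 0 hr (horizontal axes) and in host cells of HH8-HH4 0 hr (vertical axes), with 1 point per member. SLC34A2 lies far from 0 in every panel (1.88, -1.71, 1.67 and -0.94 on the horizontal axes), and SLC16A3, SLC8A3 and SLC6A6 lie at the upper right for SOX17.

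The SOX17 count was close to its background, with 7 members higher and 4 lower in positive cells. By SOX17 in HH4-HH4 0 hr, SLC8A3 was at 86.5 CPM in positive and 45.7 CPM in negative cells (log2 ratio 0.92, 0.75 to 1.09) and SLC16A3 at 38.6 and 20.2 CPM (0.94, 0.68 to 1.18). SLC6A6, the taurine transporter, was at 17.1 and 8.68 CPM (0.98, 0.59 to 1.35) and SLC1A2 at 5.70 and 2.80 CPM (1.02, 0.32 to 1.68). In the host cells of HH8-HH4 0 hr, an independent library, the SOX17 ratios were 1.02 for SLC8A3, 1.62 for SLC16A3 and 0.88 for SLC6A6. SLC8A3 was also low in SOX3-positive cells (26.2 against 69.6 CPM, -1.41, -1.60 to -1.22), with -1.47 in host cells of HH8-HH4 0 hr. By GNOT2, the SLC16A3 ratio over the groups of cells ran from -0.34 to 1.03, above 0 in 4 of 5. That of SLC8A3 ran from -1.45 to 0.84, above 0 in 4 of 6, so both members were also higher in GNOT2-positive cells of some groups. The SLC6A6 ratio by GNOT2 ran from -1.13 to 0.23, above 0 in 1 of 4 groups. By MSGN1 and by SOX3 the SLC6A6 ratio was below 0 in 4 of 4 groups.

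SLC35E3 was at 241 CPM in SOX3-positive and 122 CPM in negative cells (log2 ratio 0.98, 0.89 to 1.06) and at 116 and 208 CPM by MSGN1 (-0.84, -0.92 to -0.76). By MSGN1, SLC7A1 (a cationic amino acid transporter) was at 4.44 CPM in positive and 2.31 CPM in negative cells (0.95, 0.34 to 1.58), with 82 and 32 UMIs. SLC47A1, an exporter of organic cations, was at 11.3 and 17.4 CPM in the same classes. SLC6A9 was at 7.67 CPM in SOX3-positive and 3.97 CPM in negative cells. SLC39A9 had a ratio of 0.46 for MSGN1, and 6 of 6 comparisons, which partly share cells with that value, lay above 0 (0.16 to 0.75). SLC16A3 by MSGN1 had a ratio of -1.70 in host cells and 0.91 in graft cells of HH8-HH4 0 hr. Its direction by MSGN1 was thus opposite in host and HH8 graft cells.

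The marker differences were set side by side in both 0 hr libraries. Of the members with enough UMIs in both (all cells of the homochronic library, host cells of the heterochronic one), 31 of 54 had the same sign for GNOT2, 45 of 56 for MSGN1, 35 of 52 for SOX3 and 43 of 58 for SOX17. Over all named genes the shares of the same sign were 73.0%, 76.0%, 76.0% and 75.2%, and whether the members depart from them was not tested. Pearson's correlation across these members was 0.70, 0.77, 0.84 and 0.74, as a description across genes that rests in part on SLC34A2. When graft and host cells of HH8-HH4 0 hr were both limited to MSGN1-positive cells, 10 of 52 members were at least 1.5-fold different, 4 higher and 6 lower (background 20.9%), led by SLC2A14 (-2.89), SLC8A1 (-1.72), SLC16A3 (1.36), SLC8A3 (-1.24) and SLC39A9 (-1.05).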

How the data were processed

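The authors made the deposited values, UMI counts per gene and barcode without normalization, with Cell Ranger 6.1.1 against galGal6 (file headers and the submitters' processing notes). The members and gene lists were chosen with earlier results of these data known. Barcodes with at least 2000 UMIs were kept, and those with 1 or 2 eGFP UMIs were left out of graft and host cells. Doublets were not called, and barcodes over 3 times the median UMIs were left out as an alternative. UMIs were summed over cells, with exact Poisson intervals for levels and exact conditional intervals for ratios at 95%. The ratio intervals were run on counts simulated from the same Poisson model, a check that cannot show variation between cells or embryos. No value was added before a ratio unless stated. Named genes are the 10 most abundant members, the 3 highest and 3 lowest of each main comparison, and the reported SLC2 and SLC16 members. Other members were named after their values were seen. Replicate 1 of HH4-HH4 0 hr lists gene identifiers that no table used here pairs with symbols. Some items that these rules select are not reported here. Chromosomes were not used, and no sequences are shown. Python 3.11.15, numpy 2.4.6, scipy 1.17.1, pandas 2.3.3 and matplotlib 3.10.9 were used.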

Additional observations from a re-analysis of the deposited data

Results flagged for a closer look

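With 1 library per condition, each result here is a pair of differences that point in opposite ways, and the difference between them was not tested. Between 3 hr and 0 hr, SLC2A14 was higher in HH8 graft cells (log2 ratio 1.06) and lower in HH4 graft cells (-1.23), a gap of 2.29. SLC8A3 showed the same opposition in graft cells (0.93 and -1.17, a gap of 2.10) and in host cells (0.78 beside HH8 and -1.40 beside HH4 grafts, a gap of 2.18). SLC11A2, an iron and manganese importer, did so in host cells (0.68 and -0.79, a gap of 1.47). All 4 results involve HH4-HH4 3 hr, the library with CDX4 at 383 and 525 CPM and GSC at 3.08 and 0.125 CPM. The part of that library's cell makeup in them was not tested. Nor was the part of host RNA or host cells in the SLC2A14 level of HH8 graft cells at either time.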

How the results depend on the processing

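Of 1390 values of named members under the alternatives, 1184 stayed within the counting interval of the reported ratio, 203 lay outside it with the same direction or below 1.5-fold, and 3 of those past 1.5-fold had the opposite direction. These were SLC1A2 in HH8-HH4 0 hr graft against host (-0.40 among MSGN1-positive cells), SLC25A32 in HH4-HH4 3 hr (0.69 with each cell thinned to 2000 UMIs) and SLC6A9 by SOX17 (0.11 with 1 UMI of the marker enough). Of 75 counts of members past 1.5-fold, 44 stayed within 1.5 times the reported count and 31 did not.

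With a limit of 2-fold the counts were 1 for GNOT2, 1 for MSGN1, 2 for SOX3, 1 for SOX17, 6 for HH8 against HH4 grafts, and 0, 1, 6 and 4 for graft against host in HH4-HH4 0 hr and 3 hr and HH8-HH4 0 hr and 3 hr. With no minimum of UMIs they were 21, 20, 33, 29, 33, and 16, 27, 38 and 39, more genes being tested. With 10 CPM added they were 5 for HH8 against HH4 grafts, 3 for HH4-HH4 0 hr and 8 for HH8-HH4 0 hr. Thinning, which left fewer genes to test, gave 3 of 36, 0 of 5 and 3 of 7 in HH4-HH4 0 hr, HH4-HH4 3 hr and HH8-HH4 3 hr. Graft cells taken from 1 eGFP UMI gave 1 for HH4-HH4 at 0 hr while HH8-HH4 at 3 hr gave 5, cells under 500 CPM of HINTW gave 9 in HH4-HH4 0 hr, and MSGN1-positive cells gave 10 in HH8-HH4 0 hr. Cells positive for exactly 1 marker gave 6 for GNOT2, and 1 UMI of the marker gave 2 for MSGN1 and 2 for SOX17. Except where genes or UMIs limit the test, the cause was not tested.

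No paired analysis was possible because each condition has 1 library and no test was run. Leaving out replicate 2 of HH4-HH4 0 hr and the MSGN1-positive comparison in HH8-HH4 3 hr (16 graft cells) were not run. With 1 library per condition, library, pool, sex mixture and stage cannot be told apart, and genes under 100 UMIs are too few to compare.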
